A study of Mus musculus with 23 samples.

Results

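Loss of p53 was added to mouse retinas that already lacked Rb and p107, and microRNAs were compared between the retinas with and without that added loss. The comparison used all 522 microRNA assays in 7 of the 23 samples of the series: 4 samples labelled DKO_P53KO and 3 samples labelled DKO, taken from the second of 2 profiling sets by their labels. The 3 wild-type (WT) samples of that set, labelled WT, entered the same fit and are given as a background level. The samples were fresh mouse retina of mixed background strain, with no treatment. Titles of the first set's DKO samples give Chx10Cre, Rb lox/lox and p107 -/-, and DKO in the second set was read as that genotype, and DKO_P53KO as the same with p53 lost too. The second set's own labels give no Cre driver, no p53 allele and no age. Chx10 drives Cre in retinal progenitor cells, so cells outside that lineage keep Rb. The labels do not say whether each sample is 1 animal, 1 litter or 1 tumour, so each p-value reflects the spread among these samples, which may be technical. Transcripts of Rb, p107 and p53 are not in the microRNA table, so the loss of each gene was not checked here.

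Rb and p107 are pocket proteins that hold E2F transcription factors in check, and without them retinal progenitor cells fail to leave the cell cycle in an orderly way. The transcription factor p53 halts or kills such cells, and mouse retinas without Rb and p107 form retinoblastoma more readily once p53 is lost as well. The miR-17-92 cluster, a polycistron that makes several microRNAs from 1 transcript, is known as an E2F and Myc target and a driver of tumour growth. The miR-34 family is the best known set of microRNAs induced by p53, and the related miR-449 family is known to respond to E2F1. A microRNA recognises its targets mainly through its seed, bases 2 to 8 from its 5′ end, so that microRNAs with 1 seed share many targets.

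The mature sequences of the microRNAs that the results turn on are given 5′ to 3′ from RefSeq (GRCm38.p6) with the seed in capitals; of 68 assays looked up, 63 had a mature sequence in the table used. The first set shares the seed AAAGUGC and is shown because all 6 members rose. They come from 3 clusters: miR-17 and miR-20a from chromosome 14, miR-106a and miR-20b from chromosome X, and miR-106b and miR-93 from chromosome 5.
miR-17: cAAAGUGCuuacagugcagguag
miR-106a: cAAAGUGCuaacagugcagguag
miR-20a: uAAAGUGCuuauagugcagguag
miR-20b: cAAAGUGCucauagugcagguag
miR-93: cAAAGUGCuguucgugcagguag
miR-106b: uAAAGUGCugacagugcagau
The sequences of miR-17 and miR-106a differ at 1 of 23 bases and those of miR-20a and miR-20b at 2 of 23, so an assay for one may read part of the other. The other members of the miR-17-92 cluster carry other seeds; miR-19a and miR-19b share one and differ at 1 of 23 bases.
miR-18a: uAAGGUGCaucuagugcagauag
miR-19a: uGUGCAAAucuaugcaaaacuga
miR-19b: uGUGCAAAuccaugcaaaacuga
miR-92: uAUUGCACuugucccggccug
miR-20a*: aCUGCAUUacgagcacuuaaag
The mature miR-19b and miR-92 (miR-92a-3p in RefSeq) are each made from 2 hairpins, 1 on chromosome 14 and 1 on X, which these assays cannot tell apart. The hairpins from miR-17 to miR-92 lie within 813 bases (chr14:115043684-115044496, plus strand).

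The next set shows microRNAs that share a seed but not a result, or that share both. Members of the miR-15/16 family carry AGCAGCA; miR-34b-5p and miR-449 carry GGCAGUG; miR-200b and miR-200c carry AAUACUG.
miR-15a: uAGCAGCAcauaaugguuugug
miR-15b: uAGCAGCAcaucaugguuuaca
miR-15b*: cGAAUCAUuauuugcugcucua
miR-16: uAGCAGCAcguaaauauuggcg
miR-34b-5p: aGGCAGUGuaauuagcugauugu
miR-449: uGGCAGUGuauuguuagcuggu
miR-200b: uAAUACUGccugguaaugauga
miR-200c: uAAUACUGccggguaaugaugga
The last set is shown for the falls and for the sample that stood apart. The sequences of miR-204 and miR-211 differ at 1 of 22 bases, as do those of miR-99a and miR-100.
miR-181a: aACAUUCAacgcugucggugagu
miR-206: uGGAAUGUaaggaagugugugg
miR-204: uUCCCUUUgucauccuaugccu
miR-211: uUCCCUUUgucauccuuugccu
miR-183: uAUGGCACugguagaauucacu
miR-96: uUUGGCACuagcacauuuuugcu
miR-182: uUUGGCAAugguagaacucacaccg
miR-99a: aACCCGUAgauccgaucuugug
miR-100: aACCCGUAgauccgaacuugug
The mature sequences of miR-375, miR-124a, miR-34c and miR-466d-3p are named only.

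Levels are given as log2 relative quantity, the mean quantification cycle (Cq) of 284 assays detected in all 10 samples of the set minus the assay's own Cq; a difference of 1 unit is a factor of 2 if each cycle doubles the template. Detection meant a Cq of at most 32, and levels without it, or lower, were set to a floor of -7.40. Of the 522 assays, 368 were detected in at least 1 of the 7 samples and 154 in none, and 330 were tested. Between 311 and 318 assays were detected in each DKO sample and between 329 and 350 in each DKO_P53KO sample, against 307 to 320 in WT. The mean Cq of the 284 assays of the DKO samples averaged 24.4 ± 0.312 (SD, n = 3), and that of the DKO_P53KO samples 22.8 ± 0.461 (SD, n = 4). This common difference of -1.63 cycles (exact permutation test, two-sided p = 0.0286, the smallest that 35 arrangements allow) is removed by the scaling. Without scaling, 197 of 330 assays were higher (59.7%) and 3 were lower (0.909%), so every fall below is relative to the mean of the 284 assays, and the change in unscaled Cq is given beside most of the falls named. Whether the retinas with added p53 loss held more microRNA per unit of RNA or more RNA was measured cannot be told apart, and in a whole retina fewer cells of a type cannot be told apart from less of a microRNA per cell.

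In both groups 1 sample stood apart. DKO replicate 2 was nearer to the WT samples, with an SD of Cq differences over the 284 assays of 0.593, 0.655 and 0.690, than to DKO replicates 1 and 3, with 0.887 and 0.875; DKO replicates 1 and 3 differed from each other by 0.478. DKO_P53KO replicate 3 differed from the other 3 DKO_P53KO samples by 1.41 to 1.81, whereas those differed from one another by 0.684 to 1.07. Its level lay more than 2 log2 units below all other DKO_P53KO samples for 12 of 330 assays and above them for 8, against at most 4 and 1 for any other sample of that group. For most of the assays described, calls that turn on either sample are given with and without it.

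Relative to DKO, 65 of the 330 assays were higher in DKO_P53KO (19.7%) and 70 were lower (21.2%), together 135 or 40.9%, as called by limma at an adjusted p under 0.05. All 4 DKO_P53KO samples lay above all 3 DKO samples for 72 assays (21.8%) and below them for 77 (23.3%). Of the 65 that rose, 55 lay above all 3 WT samples as well, and of the 70 that fell, 60 lay below all WT samples. Assays not called lay outside the WT samples too, such as miR-130a above and let-7e below, and their share was not counted. Without DKO replicate 2 there were 49 rises and 38 falls, of which 46 and 38 were among those called with it; without DKO_P53KO replicate 3 there were 78 rises and 83 falls. A core of 40 rises and 35 falls was called in each of the 10 fits that left out 1 sample. With only the 288 assays detected in all 7 compared samples tested, 53 of the 65 rises and 60 of the 70 falls were called. The other assays were tested through detection in all samples of 1 group only. The median change over the 330 assays was -0.05.

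**Figure D1:**
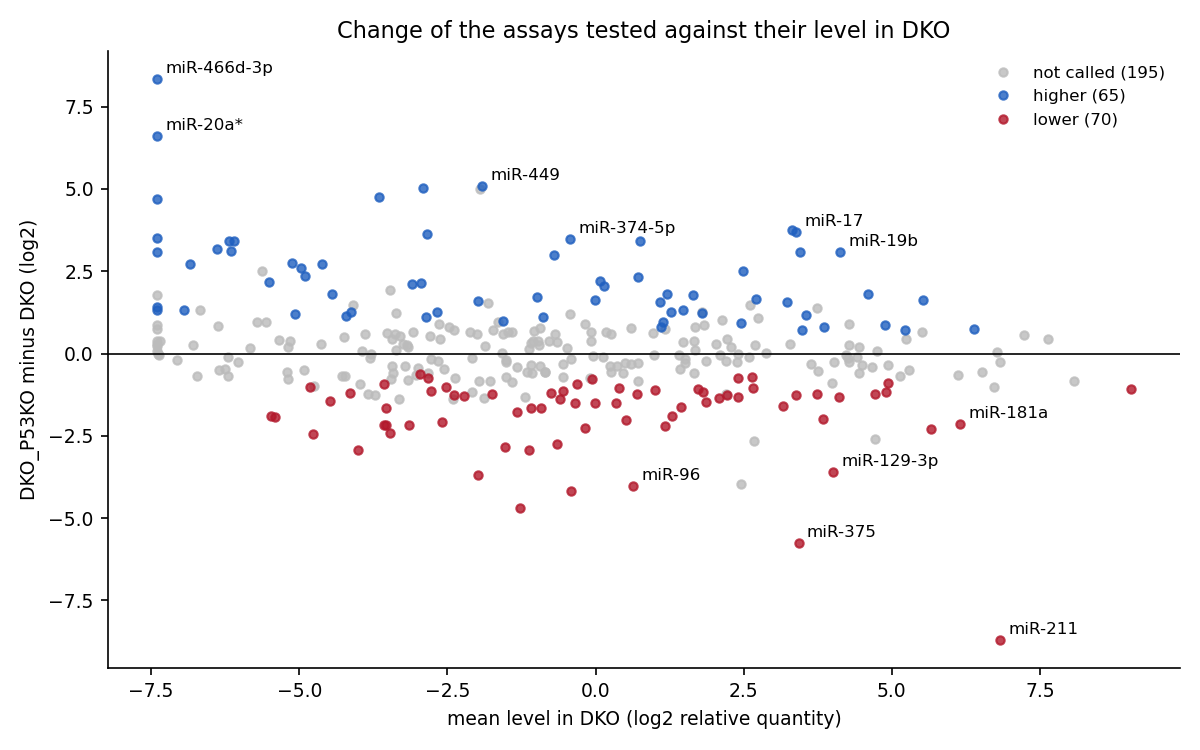
Change from DKO to DKO_P53KO (log2, y axis) against the mean level in DKO (log2 relative quantity, x axis) for the 330 assays tested; blue points rose, red points fell and grey points were not called by limma. Rises and falls occur over most of the range of levels, and the points at the left edge are assays at the floor of -7.40 in all 3 DKO samples.

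The miR-17-92 cluster rose as a whole: all 9 of its tested assays were called higher, against 19.7% over all assays. Changes lay between 1.79 and 6.59, with a median of 3.07. Of the 11 assays on the plate, the other 2 were not detected in enough samples to be tested. The largest change, that of miR-20a*, is a bound from the floor, and this assay was tested only through its detection in DKO_P53KO. The next largest was 3.69, for miR-17. The level of miR-17 was 3.97, 1.95 and 4.21 in DKO and 7.03, 7.17, 7.92 and 6.18 in DKO_P53KO. All 4 samples with added p53 loss lay above every DKO and WT sample, a change of 3.69 ± 0.57 (SE, limma adjusted p = 0.00142) or 12.9-fold; without DKO replicate 2 it was 2.97, or 7.86-fold, and still called (adjusted p = 0.00298). WT levels of miR-17 were 2.15, 1.87 and 2.51, so DKO replicate 2 lay at the WT level and DKO replicates 1 and 3 above it. For miR-18a the levels were -1.93, -4.85 and -1.78 in DKO and 0.36, 0.92, 2.00 and -0.12 in DKO_P53KO (change 3.64 ± 0.79, adjusted p = 0.0072). The pattern of miR-20a was alike, from 4.18, 1.72 and 4.44 to 6.14, 6.76, 7.71 and 5.54 (change 3.09 ± 0.69, adjusted p = 0.00797). In each of these, DKO replicate 2 was the low sample of its group and DKO_P53KO replicate 3 the high one. Without DKO replicate 2 the change was 2.64 for miR-18a and 2.22 for miR-20a, both still called (adjusted p = 0.0158 and 0.0185).

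Both miR-19 microRNAs were near or below the WT level in DKO and above it in DKO_P53KO. The level of miR-19b was 4.65, 4.21 and 4.41 in WT, 4.24, 3.37 and 4.78 in DKO and 7.24, 7.17, 8.18 and 6.21 in DKO_P53KO. Its change from DKO was 3.07 ± 0.47 (adjusted p = 0.00137), and that of miR-19a was 2.99 ± 0.50 (adjusted p = 0.00211). The smallest change of the cluster was that of miR-92, from 5.09, 3.48 and 5.22 to 6.06, 6.32, 7.54 and 5.65. At 1.79 ± 0.52 it was called (adjusted p = 0.0236), but without DKO replicate 2 it was 1.23 and did not pass (adjusted p = 0.089). The star arms, the less abundant strands of a hairpin, moved with their partners: miR-17* rose by 2.74 ± 0.51 and miR-18a* by 1.81 ± 0.43. No Cq was recorded for miR-20a* in any WT or DKO sample, whereas its Cq was 24.4, 22.8, 22.7 and 24.3 in DKO_P53KO. From the floor this is a rise of at least 6.59 on the log2 scale.

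The 2 tested assays of the miR-106a-363 cluster on chromosome X, of 5 on the plate, rose by similar amounts. The level of miR-106a was 3.93, 1.89 and 4.11 in DKO and 6.92, 7.20, 8.21 and 5.92 in DKO_P53KO, a change of 3.75 ± 0.62 (adjusted p = 0.00202). For miR-20b the change was 3.41 ± 0.68 (adjusted p = 0.00565). Without DKO replicate 2 these changes were 3.03 and 2.55, both still called. Since miR-106a and miR-17 are near-identical, how much of the miR-106a signal came from miR-17 was not tested. The miR-106b-25 cluster lies within 476 bases on chromosome 5 (chr5:138165332-138165807, minus strand). In it 4 of 5 assays rose, against 19.7% over all assays, and the median change was 1.82. The level of miR-93 was 3.26, 0.76 and 3.43 in DKO and 5.05, 5.05, 5.47 and 4.39 in DKO_P53KO. Its change of 2.51 ± 0.59 (adjusted p = 0.00964) fell to 1.64 without DKO replicate 2 and was still called (adjusted p = 0.00817). The changes of miR-106b (1.65 ± 0.38), miR-106b* (2.20 ± 0.52) and miR-93* (1.82 ± 0.38) passed as well, and that of miR-25 did not (1.25 ± 0.46, adjusted p = 0.0544).

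**Figure D2:**
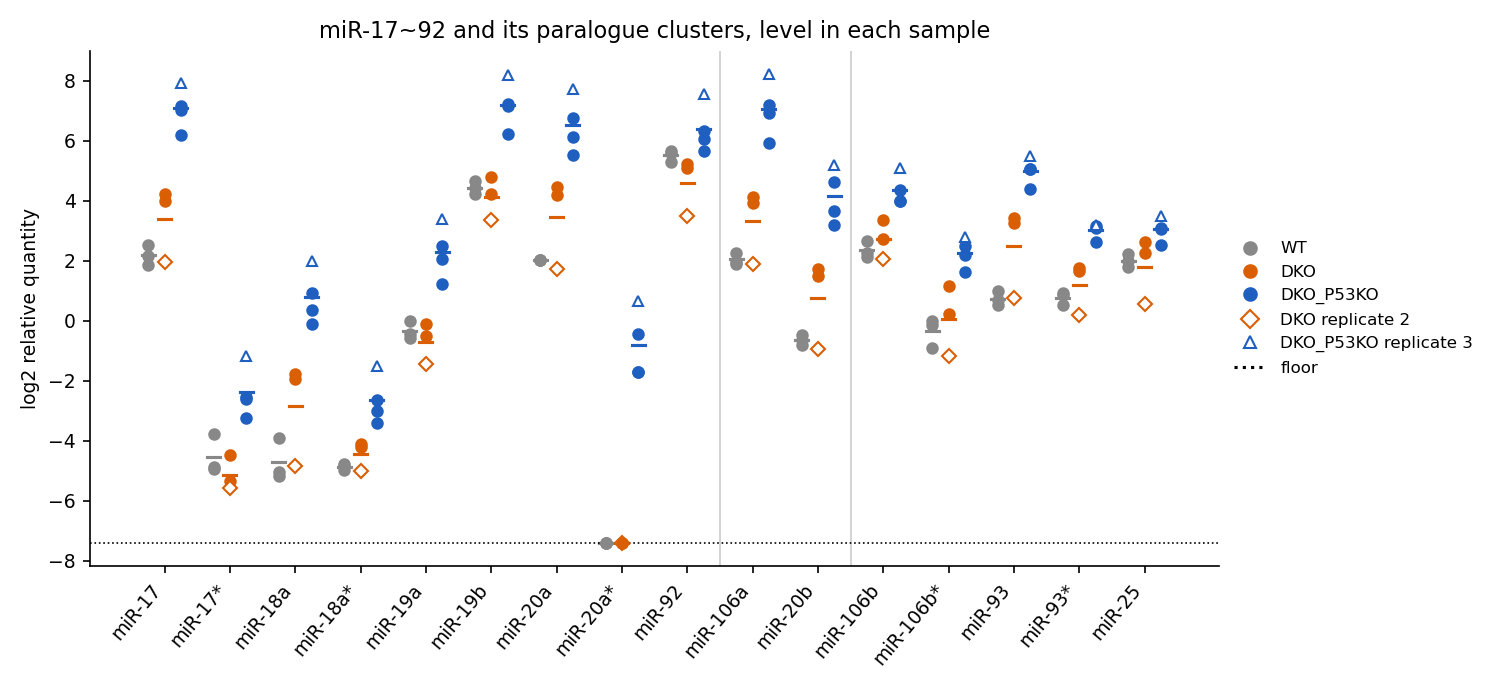
Level of each tested assay of the miR-17-92 cluster (left), the miR-106a-363 cluster (middle) and the miR-106b-25 cluster (right) in each sample (log2 relative quantity, y axis), with a bar at each group's mean. The 4 DKO_P53KO samples lie above all DKO samples for 15 of the 16 assays, miR-25 being the exception; DKO replicate 2 (open diamond) is the lowest DKO sample wherever DKO was above the floor, and DKO_P53KO replicate 3 (open triangle) is the highest in its group.

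The 6 microRNAs with the seed AAAGUGC, already counted in the 3 clusters above, had changes from 1.65 to 3.75. All 6 rose, against 19.7% over all assays. The set was shown for that reason, so the count is no separate support. Several of the 6 differ at 1 or 2 of 23 bases, so their assays may not be separate readings. Of the 3 assays with the seed AUUGCAC, miR-92 rose and miR-25 did not pass. The third, miR-32, had a Cq between 33.2 and 33.5 in DKO and between 29.9 and 30.7 in DKO_P53KO. Its change of 0.22 was set by the floor, where all DKO samples and some DKO_P53KO samples were placed, and does not measure its difference.

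The miR-15/16 family, which restrains G1 cyclins and is carried in pairs of hairpins, among them those on chromosomes 3 and 14, rose in part: 6 of 10 tested assays were higher and none was lower, against 19.7% higher over all assays, with a median of 1.37. The level of miR-16 was 5.71, 5.06 and 5.81 in DKO and 6.97, 7.48, 7.77 and 6.40 in DKO_P53KO. All 4 samples lay above DKO (change 1.63 ± 0.34, adjusted p = 0.0068). By contrast miR-15a stood at -0.06, -0.30 and 0.21 in DKO and -0.27, 0.32, 0.15 and -0.64 in DKO_P53KO, and the groups overlapped (change -0.06 ± 0.26, adjusted p = 0.855; 1.57 without scaling). The star arm of the same hairpin, miR-15a*, went from -2.80, -3.97 and -2.52 to -0.17, -0.72, -1.42 and -1.65 (change 2.11 ± 0.44, adjusted p = 0.00617). The gap was wider at miR-15b*, which had levels of -1.83, -5.00 and -1.89 in DKO and 2.64, 2.22, 2.80 and 0.81 in DKO_P53KO. This was among the larger rises (5.03 ± 0.77, adjusted p = 0.00137), and without DKO replicate 2 it was 3.97 and still called (adjusted p = 0.00153). Its partner miR-15b changed by 1.47 ± 0.62 and did not pass (adjusted p = 0.0827). The change of miR-16* was 3.17 ± 0.50 (adjusted p = 0.00163), with 1 DKO sample at the floor. This assay was tested only through its detection in DKO_P53KO. Calls for miR-195 (0.79 ± 0.26, adjusted p = 0.0356) and miR-322* (1.27 ± 0.44, adjusted p = 0.0428) were lost in 7 of the 10 fits that left out 1 sample, with adjusted p up to 0.136 for miR-195 and 0.119 for miR-322*, each without DKO replicate 2. The related miR-503 had no Cq in WT or DKO and Cq 26.2, 27.1, 27.3 and 27.8 in DKO_P53KO, a rise of at least 3.08.

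The miR-34 and miR-449 families were higher, not lower, in the samples without p53: 5 of 6 tested assays rose, against 19.7% over all assays, none fell, and the median was 1.41. The plate has no assay for miR-34a. A large rise was that of miR-449, whose level was -0.33, -4.50 and -0.92 in DKO and 4.41, 2.99, 1.99 and 3.28 in DKO_P53KO. It was above all DKO and all WT samples in 4 of 4 (change 5.09 ± 0.94, adjusted p = 0.00367). WT levels were -2.78, -3.33 and -2.40. The miR-449b assay tested moved alike, from -2.17, -6.52 and -2.26 to 2.56, 0.66, 0.00 and 1.16 (change 4.74 ± 1.03, adjusted p = 0.0072). DKO replicate 2 was again the low sample of its group for both. Without it the change of miR-449 was 3.79 (adjusted p = 0.00331) and that of miR-449b 3.30 (adjusted p = 0.00732), so both were still called.

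The miR-34b/c pair, 2 hairpins on chromosome 9 that p53 is known to induce, changed less. The level of miR-34b-3p was 0.69, -0.86 and 0.14 in DKO and 1.65, 1.43, 2.01 and 1.37 in DKO_P53KO (change 1.62 ± 0.35, adjusted p = 0.0072). For miR-34b-5p the change was 1.20 ± 0.36 (adjusted p = 0.0276), a call lost without DKO replicate 1 (adjusted p = 0.0515), 2 (0.098) or 3 (0.0708). The level of miR-34c was -1.63, -2.63 and -2.08 in DKO and -1.45, -1.58, -0.72 and -2.06 in DKO_P53KO, with overlapping groups (change 0.66 ± 0.35, adjusted p = 0.157). Its star arm miR-34c* was called (0.99 ± 0.31, adjusted p = 0.0298), but not without DKO replicate 2 (adjusted p = 0.109) or without DKO_P53KO replicate 1 (0.0538) or 2 (0.0593). Of the 6 tested assays for other microRNAs reported to respond to p53, 1 rose and 1 fell, against 19.7% higher and 21.2% lower over all assays. The riser, miR-215, was tested only through its detection in DKO_P53KO. Its Cq was 32.7, 31.8 and 32.3 in DKO and 28.9, 28.6, 29.1 and 28.8 in DKO_P53KO. All DKO and WT levels were set to the floor, so its change is a bound. Levels in DKO_P53KO were -6.17, -6.29, -5.68 and -6.18, near the detection limit. The change of miR-192, which has the same seed, was 0.79 ± 0.28 and missed the threshold (adjusted p = 0.0501); it was called without DKO replicate 2 (1.01, adjusted p = 0.0348) and without DKO_P53KO replicate 3 (0.90, adjusted p = 0.0347). Levels of miR-107 fell from -1.38, -1.19 and -1.40 to -3.64, -3.11, -2.48 and -3.11 (change -1.77 ± 0.26, adjusted p = 0.00137), and the change was -0.14 and not called without scaling.

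Among the largest rises, miR-374-5p had the least spread. Its level was -0.13, -1.03 and -0.14 in DKO, -0.20, -0.21 and -0.13 in WT, and 3.24, 3.24, 2.73 and 2.94 in DKO_P53KO (change 3.47 ± 0.27, adjusted p = 2.89e-05). Both arms of the miR-186 hairpin rose: miR-186 went from 0.10, 0.20 and 0.11 to 2.35, 1.96, 2.78 and 1.71 (change 2.06 ± 0.26, adjusted p = 0.000582), and miR-186* by 2.59 ± 0.40. For miR-374-5p and both miR-186 arms all 4 DKO_P53KO samples lay above all DKO and WT samples. Within the pair miR-221 and miR-222, neighbours on chromosome X with 1 seed that are known to target the cell cycle inhibitor p27, miR-222 rose from 1.94, 1.81 and 1.20 to 3.60, 3.62, 3.15 and 3.39 (change 1.79 ± 0.25, adjusted p = 0.00108). Levels of miR-221 overlapped, at 0.46, 0.79 and 0.12 in DKO and -1.25, 0.10, 0.70 and -0.12 in DKO_P53KO (change -0.60 ± 0.42, adjusted p = 0.259; 1.03 without scaling). The change of miR-21, common in tumours, was 0.34 ± 0.37 and did not pass (adjusted p = 0.473).

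For 13 assays all 4 DKO_P53KO samples were detected and no DKO sample was, and for none was it the other way round. Detection was a cut at Cq 32 before scaling, so this count includes the common difference of -1.63 cycles, whose part in it was not tested. The 13 assays were miR-142-5p, miR-197, miR-199b, miR-200b, miR-200c, miR-20a*, miR-214*, miR-218-2*, miR-32, miR-466d-3p, miR-503, miR-680 and miR-804. For 5 of them (miR-142-5p, miR-199b, miR-218-2*, miR-32 and miR-804) DKO samples had Cq values between 32.5 and 34.4, just past the detection limit of 32, beside the common difference of -1.63 cycles. The strongest was miR-466d-3p, with Cq 20.8, 22.2, 22.7 and 21.5 in DKO_P53KO and no Cq in any DKO or WT sample, nor in any of the 13 samples of the first set; from the floor its rise was at least 8.34. The epithelial microRNAs miR-200b and miR-200c, which hold down the Zeb repressors, had no Cq in DKO, WT or the first set either. By contrast, miR-680 had a Cq in all 13 first-set samples (27.2 to 31.7), and miR-197 in 1 of them (31.7). Neither miR-680 nor miR-197 had a Cq in DKO or WT of the second set, and the reason was not tested. In DKO_P53KO the level of miR-200c was -3.20, -1.72, -2.61 and -3.33, and that of miR-200b was -5.20, -1.62, -4.88 and -3.85. From the floor they rose by at least 4.68 and 3.51, and replicate 2 was the highest sample for both. The only other tested assay of that family, miR-141*, was lower (-1.02 ± 0.32, adjusted p = 0.0327) but higher by 0.61 without scaling. That call was lost without DKO replicate 1 (adjusted p = 0.0948) or 3 (0.0913), DKO_P53KO replicate 2 (0.0695) or 4 (0.0632), or WT replicate 3 (0.0501).

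Among the falls, miR-375, a microRNA of neuroendocrine cells, was the largest among assays detected in all 7 samples. Its level was 2.55, 4.27 and 3.47 in DKO, 3.71, 3.48 and 3.53 in WT, and -4.08, -1.10, -3.69 and -0.46 in DKO_P53KO. No sample of the groups overlapped (change -5.76 ± 0.86, adjusted p = 0.00137, or 54.2-fold lower). It was 1 of the 3 assays that were also lower without scaling, where the change was -4.13 (adjusted p = 0.00481). Another large fall was that of miR-129-3p, from a hairpin expressed in neurons, at 3.58, 4.63 and 3.80 in DKO and -2.87, 0.69, 2.63 and 1.17 in DKO_P53KO. Its change of -3.60 ± 1.04 (adjusted p = 0.0235; -1.97 without scaling, adjusted p = 0.107) was not called without DKO replicate 2 (adjusted p = 0.081) or 3 (0.0517). The other arm, miR-129, stood at -0.90, 0.09 and -0.45 in DKO and at the floor, -4.49, -2.73 and -3.77 in DKO_P53KO, so that it fell by at least 4.18 (adjusted p = 0.0072; -3.01 without scaling).

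The neuronal list, 18 tested assays of 20, gave 6 falls and 2 rises, against 21.2% lower and 19.7% higher over all assays, with a median of -0.53. Without scaling 8 were higher and none was lower, with a median of 1.10, so the direction of the list depended on the scaling. Of the assays called in this list, miR-129 was tested only through its detection in DKO and miR-218-2* only through that in DKO_P53KO. The level of miR-124a, the most abundant microRNA of neurons in many tissues, was 3.49, 4.25 and 3.77 in DKO and 1.24, 1.78, 1.95 and 2.46 in DKO_P53KO. All 4 samples lay below DKO (change -1.98 ± 0.31, adjusted p = 0.00163), while the change without scaling was -0.35 and not called. Falls of miR-128a (-1.35 ± 0.37), miR-138 (-1.18 ± 0.32) and miR-7b (-1.51 ± 0.44) turned to 0.28, 0.45 and 0.11 without scaling, and each was lost without DKO replicate 2 (adjusted p = 0.0628, 0.0677 and 0.0886). The call of miR-128a was also lost without DKO replicate 1 (0.0525), and that of miR-7b without DKO replicate 1 (0.0795) or DKO_P53KO replicate 1 (0.0536). The star arms differed: miR-124* changed by 0.39 ± 0.47 and was not called, and miR-7* rose by 0.93 ± 0.27, a call lost without DKO replicate 1 (adjusted p = 0.0839) or 3 (0.0728). Both tested members of the miR-181 family fell, miR-181a from 6.12, 6.23 and 6.11 to 3.53, 3.67, 4.56 and 4.31 (change -2.14 ± 0.27, adjusted p = 0.000582; -0.51 without scaling) and miR-181c by -1.61 ± 0.32 (0.018 without scaling). The 3 DKO and 3 WT levels of miR-181a lay between 6.03 and 6.23, and all 4 DKO_P53KO samples lay below that range.

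Other large falls were those of miR-328, miR-206 and miR-330. The level of miR-328 was 5.62, 5.66 and 5.71 in DKO and 2.64, 2.60, 4.11 and 4.16 in DKO_P53KO (change -2.29 ± 0.42, adjusted p = 0.00349; -0.66 without scaling). For miR-206, a microRNA of muscle, the levels were -1.13, -0.85 and -1.40 in DKO and -5.63, -3.59, -4.59 and -2.37 in DKO_P53KO (change -2.92 ± 0.64, adjusted p = 0.00744; -1.29 without scaling). All DKO_P53KO samples lay below all DKO samples for both miR-328 and miR-206. Of 4 tested muscle assays miR-206 was the only 1 called, against 21.2% lower over all assays. Without scaling none of the 4 was called. For each of miR-1, miR-133a and miR-133b, 2 DKO_P53KO samples lay above all DKO samples and 2 lay below them. The level of miR-330 fell to the floor in replicates 1 and 3 and to -4.41 and -3.48 in the other 2, from -1.86, -1.62 and -2.47 (it fell by at least 3.69, adjusted p = 0.0124; -2.83 without scaling). The falls of miR-544 (-2.25 ± 0.46) and miR-702 (-2.18 ± 0.36) were -0.62 and -0.55 without scaling, neither of them called there.

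MicroRNAs of the imprinted Dlk1-Dio3 domain on chromosome 12, transcribed from the maternal allele and abundant in neural tissue, were more often lower than higher relative to the mean of the 284 assays, and the direction turned without scaling. On the side nearer anti-Rtl1, 5 of 13 tested assays fell and none rose (median -0.75); on the Mirg side, 15 of 32 fell and 2 rose (median -0.77), against 21.2% lower and 19.7% higher over all assays. Of these falls, miR-770-5p, miR-154, miR-485-5p and miR-666 were tested only through their detection in DKO. Without scaling 3 rose and 1 fell on the anti-Rtl1 side (median 0.88), and 11 rose and 1 fell on the Mirg side (median 0.85). The level of miR-409-5p was -1.72, -1.15 and -1.70 in DKO and -4.18, -4.90, -4.74 and -3.62 in DKO_P53KO (change -2.84 ± 0.33, adjusted p = 0.000361; -1.21 without scaling). Its partner miR-409-3p was not called: it was 2.15, 2.17 and 2.30 in DKO and 2.43, 1.73, 1.55 and 2.16 in DKO_P53KO (change -0.24 ± 0.27, adjusted p = 0.484; 1.39 without scaling). Other members that fell were miR-668 (-2.76 ± 0.64), miR-433 (-2.21 ± 0.47), miR-329 (-2.09 ± 0.22), miR-496 (-2.17 ± 0.41), miR-543 (-1.90 ± 0.28) and miR-770-5p, which was at the floor in 3 of 4 DKO_P53KO samples. Without scaling these changes were -1.13, -0.58, -0.46, -0.54, -0.27 and -1.31, and only that of miR-770-5p was called. The rise of miR-376c went from 0.88, 1.43 and 0.94 to 3.51, 2.49, 1.93 and 2.62 (change 1.55 ± 0.35, adjusted p = 0.00801), and that of miR-411 (0.82 ± 0.21, adjusted p = 0.0155) was not called without DKO replicate 1 (adjusted p = 0.0632). Neighbours in the domain thus did not all move 1 way, and the arms of the miR-409 hairpin differed.

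**Figure D3:**
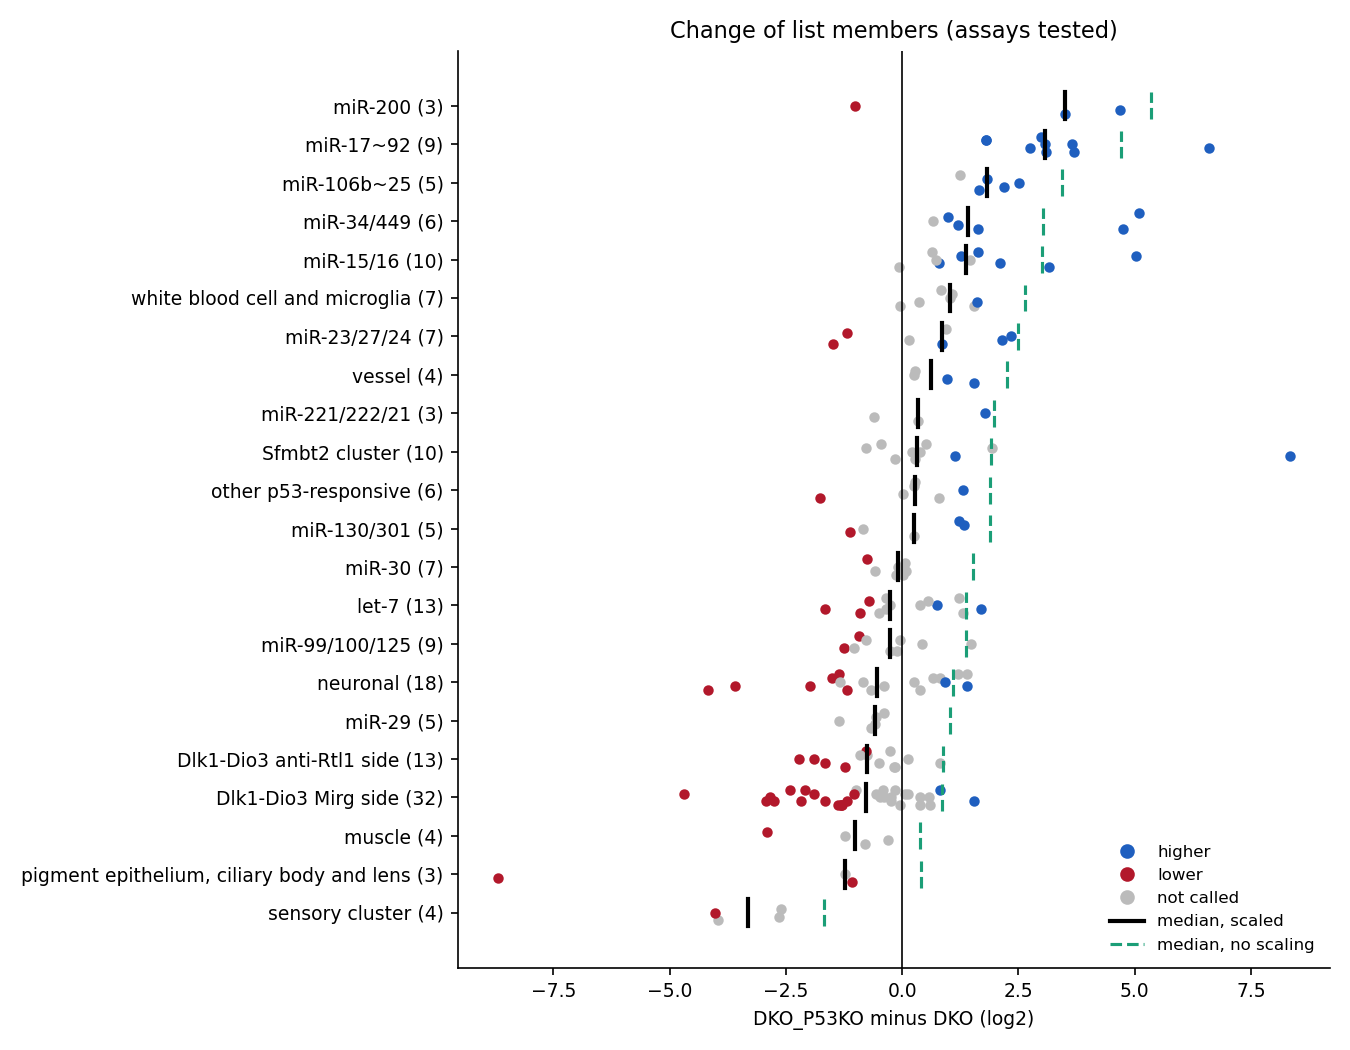
Change from DKO to DKO_P53KO (log2, x axis) of the tested assays of each list with at least 3 of them (number in brackets, y axis), with the list median (black bar) and the median without scaling (dashed green bar). The medians run from -3.31 for the sensory cluster to 3.07 for the miR-17-92 cluster and 3.51 for miR-200. Leaving out the scaling moves each to the right by about the common shift. The miR-200 median is the value of miR-200b, a bound from the floor. Of the 3 tested assays of that list, miR-200b and miR-200c had no Cq in DKO and were tested only through their detection in DKO_P53KO.

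The sensory-cell cluster that runs from miR-183 through miR-96 to miR-182, made within 3771 bases on chromosome 6 (chr6:30165962-30169732, minus strand) and abundant in photoreceptors, was the clearest case of 1 sample standing apart. The level of miR-183 was 1.55, 3.07 and 2.75 in DKO and 0.66, 0.18, -6.94 and 0.06 in DKO_P53KO, against 5.25, 5.24 and 4.94 in WT. All 4 samples were below DKO, yet replicate 3 was far below the other 3, and with it the change was not called (-3.97 ± 1.61, adjusted p = 0.0728), whereas without it the change was -2.14 and called (adjusted p = 0.00319). The other 2 microRNAs repeated this: miR-96 was at the floor in replicate 3 and -1.59, -2.41 and -2.20 in the others, from -0.61, 1.67 and 0.83 in DKO. Its change of -4.03 ± 1.24 (adjusted p = 0.0298) was -2.68 without that sample (adjusted p = 0.00456), and it was not called without DKO replicate 2 (adjusted p = 0.0989) or 3 (0.0733). Levels of miR-182 were 3.79, 5.16 and 5.22 in DKO and 4.81, 3.66, -2.97 and 3.02 in DKO_P53KO, with overlapping groups (change -2.59 ± 1.54, adjusted p = 0.192). Without scaling the changes were -2.34 for miR-183, -2.54 for miR-96 and -0.97 for miR-182, and none was called.

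The same DKO_P53KO replicate 3 was low for miR-9, miR-99a, miR-100 and miR-125b, but not for the neuronal list as a whole. The median level of that list was 0.23, 1.23, 1.95 and 0.97 in DKO_P53KO replicates 1 to 4, highest in replicate 3. The level of miR-9 was 7.90, 8.08 and 8.22 in DKO and 8.02, 7.76, 5.31 and 7.80 in DKO_P53KO (change -0.85 ± 0.58, adjusted p = 0.255). In the clusters of miR-99a with let-7c-1 and miR-125b-2 on chromosome 16, and of miR-100 with miR-125b-1 on chromosome 9, miR-99a was 4.50, 4.20 and 4.53 in DKO and 5.10, 4.70, 2.43 and 4.94 in DKO_P53KO, and miR-100 was 4.05, 4.23 and 4.39 in DKO and 4.72, 4.90, 2.37 and 4.70 in DKO_P53KO. With replicate 3 neither was called (-0.12 ± 0.57, adjusted p = 0.876, and -0.05 ± 0.55, adjusted p = 0.943); without it both were called higher, by 0.52 (adjusted p = 0.0411) and 0.57 (adjusted p = 0.0234). For miR-125b the value of replicate 3 was 3.95 against 6.12, 6.29 and 6.43. The sample was in turn high for a few microRNAs. The level of miR-216b was -1.26, -1.16 and -1.16 in DKO and at the floor, -2.26, 2.39 and -2.78 in DKO_P53KO, and that of miR-217, from a neighbouring hairpin on chromosome 11, was between -4.39 and -3.55 and then at the floor, -5.00, -0.81 and -6.39. Levels of miR-190b spread over -1.96, 7.03, 9.73 and 3.71 in DKO_P53KO, against 3.94 to 4.91 in DKO. None of these was called with all 4 samples (miR-217 changed by -0.92, adjusted p = 0.558), but without replicate 3 miR-217 was called lower (-2.27, adjusted p = 0.0105).

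**Figure D4:**
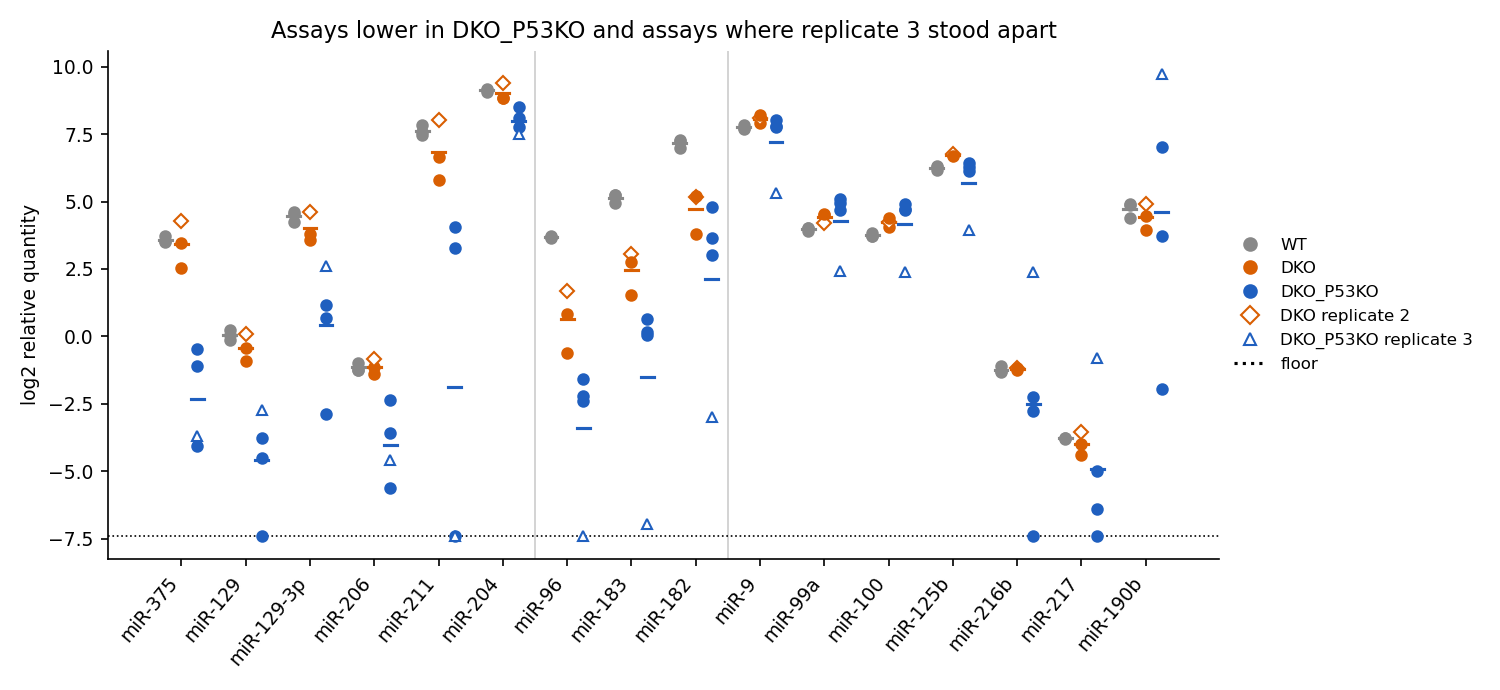
Level in each sample (log2 relative quantity, y axis) of assays that were lower in DKO_P53KO (left), of the miR-183 cluster (middle) and of assays for which DKO_P53KO replicate 3 stood apart (right), with a bar at each group's mean. Replicate 3 (open triangle) lies at -6.94 for miR-183 and -2.97 for miR-182 while the other 3 samples lie near or below DKO, and miR-211 is at the floor in replicates 1 and 3.

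In the list for pigment epithelium, lens and ciliary body, 2 of 3 assays fell, miR-204 and miR-211, against 21.2% lower over all assays. With no Cq in DKO_P53KO replicates 1 and 3, miR-211 was tested only through its detection in DKO. The third, miR-184, was not called. Without scaling none of the 3 was called, and the list median was 0.40. The level of miR-211 was 5.81, 8.03 and 6.65 in DKO, at the floor in DKO_P53KO replicates 1 and 3, and 3.28 and 4.06 in replicates 2 and 4 (it fell by at least 8.69, SE 2.81, adjusted p = 0.0347; -7.83 without scaling, not called). That call was lost in 8 of the 10 fits that left out 1 sample. Among them were those without DKO replicate 2 (adjusted p = 0.0995, the highest) and without DKO_P53KO replicate 3 (0.0614). Its near-twin by sequence, miR-204, stood at 8.85, 9.41 and 8.85 in DKO and 7.78, 8.10, 7.50 and 8.50 in DKO_P53KO (change -1.07 ± 0.27, adjusted p = 0.0141; 0.56 without scaling), and did not pass without DKO replicate 2 (adjusted p = 0.0531).

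The let-7 family, which rises as progenitors differentiate, was mixed: of 13 tested assays 2 rose, 3 fell and 8 were not called, against 19.7% higher and 21.2% lower over all assays. Without scaling 10 of the 13 were higher and none was lower. Levels of let-7a were 5.12, 4.92 and 4.78 in DKO and 3.49, 4.24, 4.29 and 4.16 in DKO_P53KO (change -0.90 ± 0.24, adjusted p = 0.017; 0.73 without scaling), a call lost without DKO replicate 1 (adjusted p = 0.066). The let-7a* arm moved the other way, from -1.20, -0.59 and -1.18 to 1.01, 1.17, 0.52 and 0.15 (change 1.70 ± 0.32, adjusted p = 0.00408). Levels of let-7b, which differs from let-7c at 1 of 22 bases, were 6.48, 6.34 and 6.37 in DKO and 7.51, 7.31, 6.66 and 7.07 in DKO_P53KO; its call (0.74 ± 0.23, adjusted p = 0.0324) was lost in 7 of the 10 fits that left out 1 sample (adjusted p up to 0.0886). In the list of miR-99, miR-100 and miR-125 assays 2 of 9 fell, near the 21.2% lower over all assays. Of these, miR-99b had the clearer groups, at 3.21, 3.56 and 3.38 in DKO and 1.93, 2.10, 2.20 and 2.30 in DKO_P53KO. Its change was -1.25 ± 0.19 (limma adjusted p = 0.00137) and 0.38 without scaling. The call of the other, miR-125a-3p (-0.92 ± 0.32, adjusted p = 0.0437), was lost in 6 of the 10 fits that left out 1 sample. Its change was 0.71 without scaling. None of 5 assays of the miR-29 family and 1 of 7 of the miR-30 family was called, against 40.9% over all assays. That call, a fall of miR-30d (-0.75, limma adjusted p = 0.0308), was lost in 5 of the 10 fits that left out 1 sample. Its adjusted p was 0.108 without DKO replicate 2. In the miR-23/27/24 list 3 of 7 rose and 2 fell, against 19.7% and 21.2% over all assays: miR-24-2* rose by 2.15 ± 0.39 (adjusted p = 0.00328) and miR-27a* by 2.35 ± 0.54 (adjusted p = 0.00842), while miR-23b went from -0.22, -0.19 and -0.63 to between -2.48 and -0.99 (change -1.49 ± 0.33, adjusted p = 0.00756; 0.13 without scaling). The fall of miR-27b (-1.18, adjusted p = 0.0387; 0.45 without scaling) was lost in 9 of the 10 fits that left out 1 sample (adjusted p up to 0.114), and the rise of miR-24 (0.85, adjusted p = 0.0151) without DKO replicate 1 or 3 (adjusted p up to 0.0605).

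Both arms were tested for 64 pairs. For 48 pairs the arms changed with the same sign; 13 pairs were called in 1 direction in both arms (10 higher, 3 lower), 25 pairs in 1 arm, 25 in neither, and only the let-7a hairpin in opposite directions. Of 63 tested assays with a star name 19 rose and 5 fell (median 0.65), and of the other 267 assays 46 rose and 65 fell (median -0.18). In 35 of the 47 pairs of a star arm with its partner the star arm changed further upward, by a median of 0.52 over all 47; some of these pairs share an arm or a cluster and are not independent. At the miR-15a hairpin the star arm was 2.75, 3.67 and 2.74 cycles behind its partner in DKO and -0.10, 1.04, 1.57 and 1.02 cycles in DKO_P53KO. All 4 gaps in DKO_P53KO were smaller than any in DKO, a comparison within samples that the scaling does not touch. At miR-15b the star arm was behind by 4.96, 6.27 and 5.30 cycles in DKO and by 0.90, 1.63, 2.69 and 2.56 cycles in DKO_P53KO. The gap of let-7a* to let-7a likewise went from 6.32, 5.51 and 5.96 to 2.48, 3.07, 3.77 and 4.01 cycles. At miR-18a it widened, from 2.17, 0.18 and 2.44 to 3.35, 3.56, 3.49 and 3.29 cycles.

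**Figure D5:**
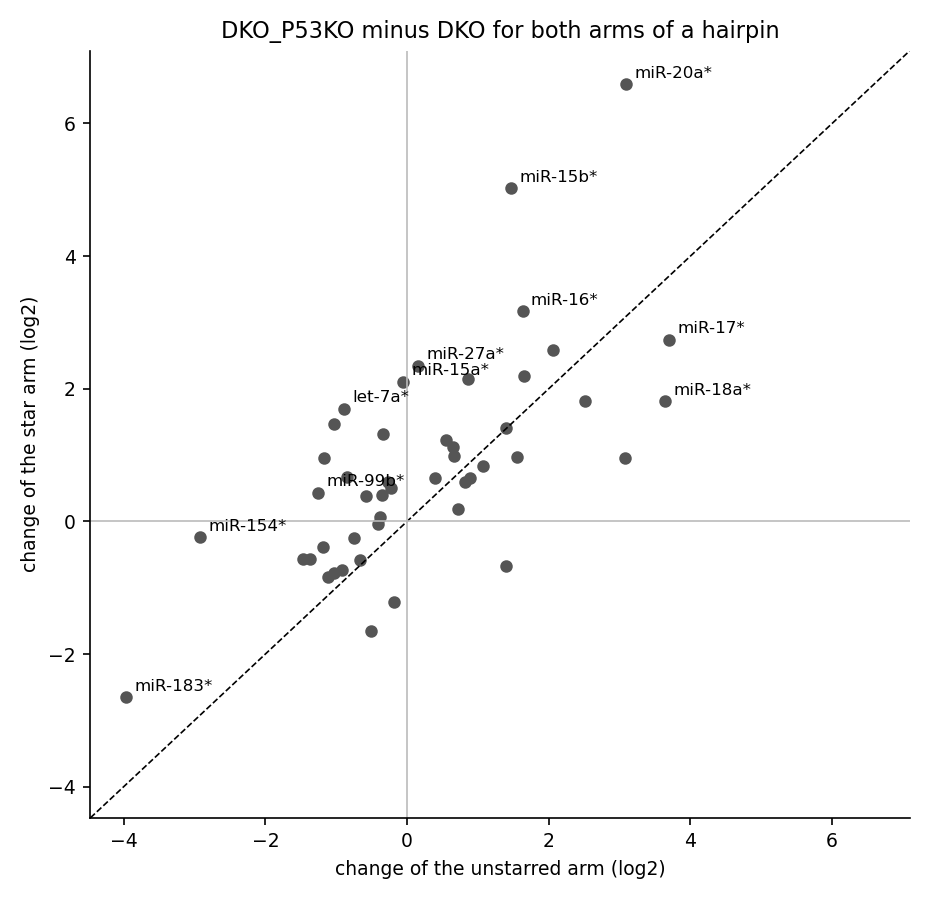
Change from DKO to DKO_P53KO (log2) of the star arm (y axis) against that of its partner (x axis) for 47 pairs of arms of 1 hairpin; the dashed line marks equal change. Above the line lie 35 of the 47 pairs, with miR-20a* and miR-15b* farthest up, and miR-17* and miR-18a* lie below it.

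Markers of other cells were measured beside these changes. Of 7 tested assays of white blood cells and microglia 1 rose and none fell (median 1.02), against 19.7% higher over all assays: miR-155 had levels of -0.59, -2.81 and -2.57 in DKO and 0.31, -0.16, -0.95 and -0.76 in DKO_P53KO, with overlapping groups (change 1.60 ± 0.53, adjusted p = 0.0377), and its call was lost in 7 of the 10 fits that left out 1 sample (adjusted p up to 0.136, without DKO replicate 2). Of 4 vessel assays 2 rose, against the same 19.7%: miR-126, of endothelial cells, went from 2.65, 3.60 and 3.44 to 5.10, 4.82, 5.24 and 3.96 (change 1.55 ± 0.36, adjusted p = 0.00842), and WT levels were 4.10, 3.80 and 4.22. The other, miR-126* (0.97, adjusted p = 0.0427), lost its call in 9 of the 10 fits that left out 1 sample (adjusted p up to 0.149, without DKO replicate 1) and under median scaling or quantile normalization. The summed picture per sample, as the list median, was -0.59, -2.32 and -1.98 in DKO and 0.31, -0.16, 1.08 and -0.76 in DKO_P53KO for white blood cells, and 0.94, 2.04 and 1.78 and then 2.50, 1.93, 2.73 and 1.68 for vessels. The red blood cell assay on the plate was not detected in enough samples to be tested, nor were any of the 21 embryonic stem cell assays. The part of these cells in the changes above was not tested.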

How the data were processed

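Total RNA from retina was reverse transcribed with 522 stem-loop primers, pre-amplified for 14 cycles and read by qPCR with a FAM reporter, per the labels' protocols. The authors deposited 1 table of Cq values that were not normalized; 10 columns without a name were not used, and the software and threshold behind the Cq values are not given in the sources used here. For each of the 10 samples of the second set, log2 relative quantity was computed as the mean Cq of 284 assays minus the assay's Cq, with values above Cq 32 or undetermined set to the floor. Assays detected in all DKO or all DKO_P53KO samples and not at the floor throughout were fitted with limma 3.58.1 in R 4.3.3 over WT, DKO and DKO_P53KO, with eBayes and Benjamini-Hochberg adjustment over the 330 assays tested. The scripts were tested on simulated data. The labels do not say that replicate numbers pair samples, and the main fit did not pair them. Same-numbered deviations from the group mean correlated by -0.06, 0.12 and 0.14 over 284 assays. Differently numbered samples were not compared, so pairing was not tested. Named assays are the members of 29 lists, the 10 largest rises and 10 largest falls, assays detected in 1 group only, and pairs of arms; members and lists were chosen with earlier results of these data known, and other assays named (miR-330, miR-330-5p, miR-216b, miR-217 and miR-190b) were chosen after their values were seen. The number of assays detected, not a read depth, describes each sample, and without technical replicates the error of a Cq is unknown. Alternatives covered scaling, detection limit, filter, variance model, samples fitted and each sample left out.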

Additional observations from a re-analysis of the deposited data

Results flagged for a closer look

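For 32 of 328 assays (9.76%) 1 of the 4 DKO_P53KO samples lay outside the others by a gap above Dixon's 95% critical value for 4 samples; chance flags about 1 in 20. Replicate 3 was that sample for 16 of the 32, replicate 1 for 8, replicate 4 for 6 and replicate 2 for 2. Among the assays named here, replicate 3 was the outlying sample for miR-183 (-6.94, with the other 3 between 0.06 and 0.66), miR-96 (-7.40, the floor), miR-9 (5.31, others 7.76 to 8.02), miR-99a (2.43, others 4.70 to 5.10), miR-100 (2.37, others 4.70 to 4.90) and miR-125b (3.95, others 6.12 to 6.43). Replicate 1 was low for let-7a (3.49) and miR-30d (1.32) and high for miR-322* (-0.10, others -1.96 to -1.78). Replicate 4 was low for miR-34c* (-1.10) and miR-93* (2.63) and alone above the floor for miR-330-5p (-6.67) and miR-770-5p (-7.28).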

How the results depend on the processing

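Scaling mattered most: without it 197 assays were higher and 3 lower, against 65 and 70 with it, and all 65 rises but 3 of the 70 falls were called in both. Fitting only the 7 compared samples, without WT, gave 43 rises and 42 falls, all among the 65 and 70. Calls lost there included those of miR-92, miR-96, miR-129-3p, miR-128a, miR-138, miR-7b, miR-24, let-7a, miR-301 and miR-301b. Over the fits that left out 1 sample, rises ranged from 48 to 78 and falls from 38 (without DKO replicate 2) to 83 (without DKO_P53KO replicate 3). The replicate block gave 72 rises and 64 falls, with 61 and 61 in common. The labels do not say that these numbers pair samples. The difference in mean Cq ranged from -1.84 to -1.48 when 1 sample was left out, with p equal to the smallest each design allows, 0.0667 without a DKO sample and 0.1 without a DKO_P53KO sample, so that these p-values say nothing about stability.

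Among described assays called with or without scaling, leaving it out turned the direction of miR-15a (1.57), miR-27b (0.45), miR-23b (0.13), miR-141* (0.61), miR-130b (0.51), miR-181c (0.018), miR-128a (0.28), miR-138 (0.45), miR-7b (0.11), miR-127 (0.39), miR-409-3p (1.39), miR-204 (0.56), let-7a (0.73), let-7f (0.91), miR-99b (0.38) and miR-30d (0.88), which follows from the common shift of -1.63 cycles. Assays called in neither fit turned too, such as miR-221 (1.03), miR-125b (0.60), miR-9 (0.78), miR-99a (1.51), miR-100 (1.58) and miR-217 (0.24). Without DKO_P53KO replicate 3, miR-99a and miR-100 turned and were called higher; over the fits that left out 1 sample they ranged from -0.36 to 0.52 and from -0.29 to 0.57. The calls of miR-127 and let-7f were lost without DKO replicate 2 (limma adjusted p = 0.109 and 0.0842). Values at the floor are bounds, and 7 samples limit the precision of each change.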

Other observations

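The 4 DKO_P53KO samples also differed among themselves in a microRNA of an imprinted growth factor gene. The level of miR-483*, from an intron of Igf2 and chosen after its values were seen, was 2.21, at the floor and -0.65 in DKO and 5.99, 3.13, -2.71 and 5.79 in DKO_P53KO. Its rise (SE 2.48) was not called by limma (adjusted p = 0.129), and without DKO_P53KO replicate 3 it was called (6.94, adjusted p = 0.0286). Of 10 tested assays of the rodent Sfmbt2 cluster 2 rose and none fell (median 0.32), a share near the 19.7% of all assays: miR-466d-3p, and miR-467c (1.15, adjusted p = 0.0395), whose call was lost in 7 of the 10 fits that left out 1 sample (adjusted p up to 0.139). Of the 23 assays of the X-linked miR-465 cluster, which is active in testis, 1 was tested and it was not called (change 0.41). In the list of miR-130 and miR-301 assays 2 of 5 rose and 1 fell, against 19.7% higher and 21.2% lower over all assays. The rises were those of miR-301, by 1.33 ± 0.38 (limma adjusted p = 0.0222), and miR-301b, by 1.22 ± 0.36 (adjusted p = 0.0241). The fall was that of miR-130b (-1.12 ± 0.35, adjusted p = 0.0313), whose change was 0.51 without scaling. The calls of all 3 were lost without DKO replicate 1 (adjusted p = 0.0658, 0.0683 and 0.0831) or 3 (0.0733, 0.0776 and 0.107), and that of miR-130b without DKO_P53KO replicate 1 as well (0.0716).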
